A study of Mus musculus with 6 samples.

Results

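The 10 genes described here encode proteins of cartilage matrix other than collagens, with the transcription factors and the ligand that act on chondrocytes. They were chosen by name, with results of the comparison of WT and KO already known, and their rows were read from the gene-count table of leg muscle, which listed 56262 genes. All 10 were in the table, and all 10 were among the 22071 genes that passed the filter on low counts. Because this comparison was part of the choice, the levels of these 10 genes and their differences between genotypes are given as a description, with no test. RNA-seq was done on leg muscle of mouse fetuses at embryonic day 18.5, with 3 WT samples and 3 samples from fetuses lacking *SYISL*, a long noncoding RNA. Both genotypes were obtained from parents of the same genotype as the fetus, so the genotype of the mother and that of the fetus cannot be told apart, and neither the litter of a sample nor the background strain was given in the sources used here. No treatment was given to these fetuses according to the labels. Each sample held 82054811 to 102233181 counts.

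Cartilage matrix is a network of type II collagen fibrils filled with aggrecan, a large proteoglycan that binds water through its chondroitin sulfate chains and is fixed to hyaluronan by a link protein. Adaptor proteins such as the matrilins and COMP tie collagen, proteoglycan and cell together. SOX9 switches on most genes of this matrix together with SOX5 and SOX6, and Indian hedgehog, made by chondrocytes that stop dividing, sets the pace of their maturation. Muscle fibers are not a main site of these genes, and some are also used outside cartilage, as *Comp* is in tendon and *Sox9* in the hair follicle. In bulk RNA, fewer cells of a type and less RNA per cell cannot be told apart.

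The 10 genes differed between genotypes in both directions. *Matn1* and *Matn3* were lower in KO, *Chad* and *Comp* were higher, *Acan* was modestly higher, *Sox9*, *Ucma* and *Ihh* were modestly lower, and *Hapln1* and *Sox5* overlapped between the genotypes. With calls made at a fold change above 1.5 and an adjusted p below 0.05, 2 of the 10 genes were past both limits as higher (8.31% of all genes tested did so) and 2 as lower (8.39% of all genes tested). In 8 of 10 genes the 3 KO values did not overlap the 3 WT values, against 55.9% of all genes tested, with 3 of the 10 higher (27.3% of all genes) and 5 lower (28.5% of all genes). Nothing is read from these counts, because the comparison was known when the genes were chosen. The median log2 fold change of the 10 genes was -0.18, beside -0.0042 for all genes tested.

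The sequence before the transcription start is shown for the 2 genes with the lowest and for the gene with the highest KO-to-WT ratio among these 10, because these genes carry the contrast within the group. The sequences are the 250 bases before the RefSeq start on GRCm38.p6, the assembly also called mm10, written 5′ to 3′ along the gene. Capitals mark matches, on either strand, to the GC box GGGCGG and to the TATA box TATAAA.
Matn1, chr4:130944135-130944384, plus strand: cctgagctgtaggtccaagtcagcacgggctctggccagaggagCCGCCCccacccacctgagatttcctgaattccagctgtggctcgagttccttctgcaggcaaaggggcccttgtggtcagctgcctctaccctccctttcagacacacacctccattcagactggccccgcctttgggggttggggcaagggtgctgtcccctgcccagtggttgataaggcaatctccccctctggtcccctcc
Matn3, chr12:8947679-8947928, plus strand: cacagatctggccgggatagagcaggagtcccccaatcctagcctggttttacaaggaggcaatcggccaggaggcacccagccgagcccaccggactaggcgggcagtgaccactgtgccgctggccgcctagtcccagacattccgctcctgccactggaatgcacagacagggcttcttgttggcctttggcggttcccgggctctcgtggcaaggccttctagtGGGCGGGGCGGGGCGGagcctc
Chad, chr11:94564797-94565046, plus strand: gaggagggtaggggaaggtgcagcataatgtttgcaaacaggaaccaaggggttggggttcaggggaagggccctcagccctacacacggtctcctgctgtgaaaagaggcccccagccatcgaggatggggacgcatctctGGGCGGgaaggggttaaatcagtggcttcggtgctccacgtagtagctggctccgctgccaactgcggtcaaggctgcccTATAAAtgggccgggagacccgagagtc

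*Matn1* held 1 GC box on its reverse strand, 206 bases before the start. *Matn3* held 3 overlapping GC boxes that began 22, 17 and 12 bases before the start. *Chad* alone held a TATA box, 28 bases before the start, and also a GC box 108 bases before it. Entries for 8 of the 10 genes were in the RefSeq table, without *Comp* and *Sox9*. A GC box was present in 5 of these 8 windows (*Acan*, *Chad*, *Ihh*, *Matn1* and *Matn3*), and in 32.7% of the 32851 windows of all genes. The TATA box was in 1 of 8 windows, against 12.4% of all windows. The letters ACAAT, a core that SOX proteins bind, were found on either strand in 3 of the 8 windows (*Hapln1*, *Ihh* and *Sox5*) and in 27.7% of all windows, and the related ACAAAG in 0 of 8 and in 16.5% of all. The windows differed in base composition, from 39.6% G and C in *Sox5* to 74.4% in *Acan*, with a median of 52.4% over all windows. The windows of *Sox5* (chromosome 6, 143947107 to 143947356) and *Hapln1* (chromosome 13, 89540386 to 89540635) lay inside the annotated spans of these genes. Their matches and base composition therefore belong to internal starts. A match is only a match of letters, and no occupancy of these sites was measured.

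Marker RNA levels of tissues other than cartilage also differed between genotypes, and the cell makeup of the samples was not measured. All 12 of 12 epidermal markers (keratins and cornified envelope genes such as *Krt1*) were called lower in KO, with summed levels of 16623 to 24709 CPM in WT, highest in WT replicate 2, and 932 to 1042 CPM in KO. Of 10 muscle fiber markers, 9 were called higher, with sums of 20776 to 23217 CPM in WT and 43862 to 53851 CPM in KO, so markers of the labelled tissue were abundant in every sample. Of 8 markers of tendon, a tissue that expresses *Comp*, 2 were called higher (*Thbs4* and *Fmod*), with sums of 13230 to 13469 CPM in WT and 15447 to 16425 CPM in KO. Bone markers had 2 of 10 called higher and 1 lower, with sums of 18782 to 21266 CPM in WT and 21723 to 22315 CPM in KO. *Col1a1* made up most of the bone sums, with 17112 to 19579 CPM in WT and 20356 to 20701 CPM in KO. *Col1a2* made up most of the tendon sums, with 12082 to 12237 and 13790 to 14779 CPM. Both sums thus mainly follow these 2 collagen genes, and 5 of the 10 bone markers had a log2 fold change below 0. Fibroblast and endothelial markers had 0 of 6 called each by edgeR, although 6 and 5 of them had an unadjusted p under 0.05. All 6 fibroblast markers and most endothelial ones also had an adjusted p under 0.05, and missed only the 1.5-fold limit. The share of all genes tested with a p under 0.05 was not computed, so nothing is read from these counts. The fibroblast and endothelial sums were 15603 to 16138 and 663 to 695 CPM in WT, and 19588 to 20524 and 763 to 801 CPM in KO. Of the 6 Schwann cell markers 1 was called in each direction (sums 436 to 445 and 517 to 554 CPM). No marker on these lists was at 0 in all samples. The part of these other tissues in the levels of the 10 genes was not tested.

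*Acan*, the core protein of aggrecan, was the most abundant of the 10 genes. Its gene lies on chromosome 7 of mm10 from 79053483 to 79115099, and its level in CPM, the counts scaled to a common library size, was 110, 92.2 and 109 for WT and 141, 135 and 138 for KO. All KO values were above all WT values. The means were 104 ± 9.94 and 138 ± 2.88 CPM (SD, n = 3 each, as for all means below), a log2 fold change of KO over WT of 0.41 with a standard error of 0.064. *Hapln1*, the link protein that fastens aggrecan to hyaluronan (chromosome 13, 89539796 to 89611652), had 40.6, 28.1 and 36.1 CPM in the WT samples, and 35.3, 37.3 and 35.9 CPM in KO. The KO values lay inside the WT range. Its log2 fold change was 0.051 (standard error 0.11), and the sign turned when WT replicate 2 was left out (-0.084) or when only library size was used for scaling (-0.02). The 2 partners of the aggregate therefore differed in ratio, with 2.37 ± 0.231 times as much *Acan* as *Hapln1* per length in WT and 3.02 ± 0.147 in KO.

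**Figure D1:**
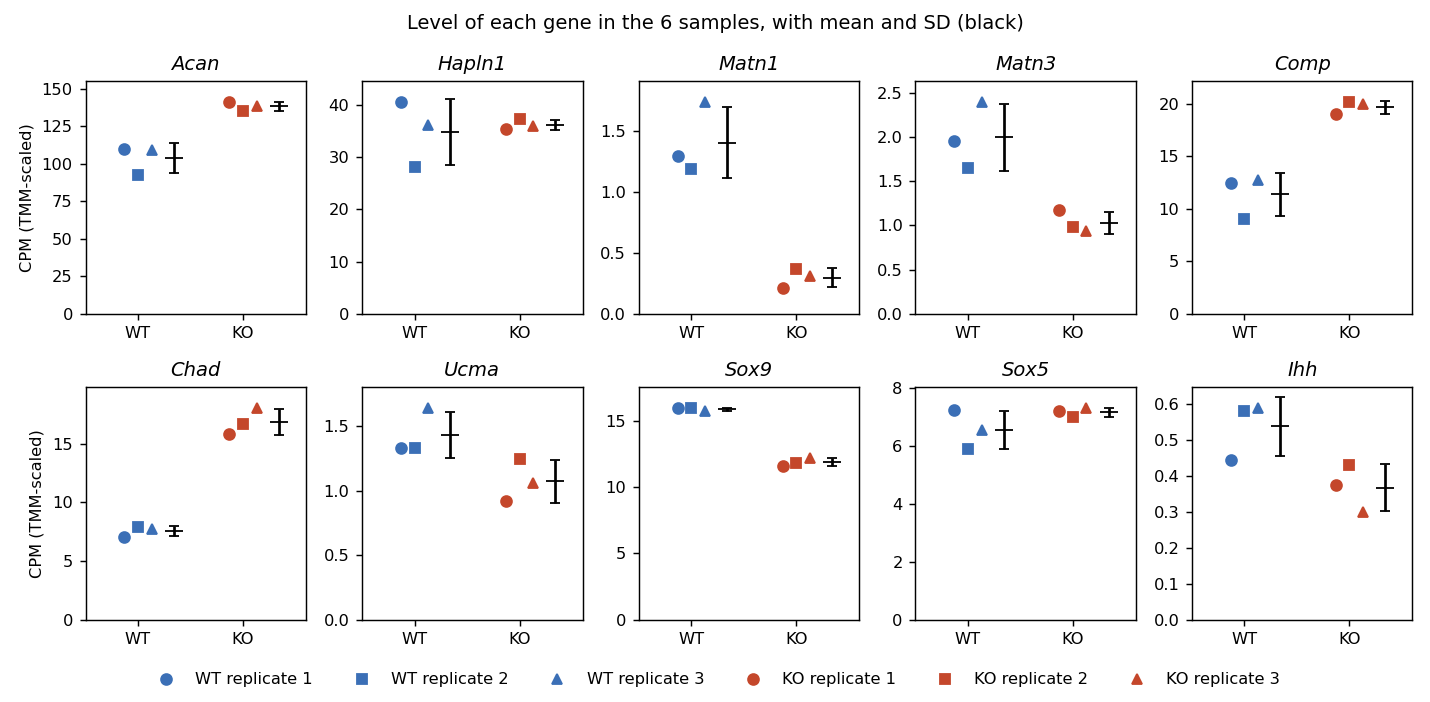
Level of each of the 10 genes in every sample, in CPM on TMM-scaled library sizes, with the axis starting at 0 in each panel, WT in blue, KO in red, a marker shape per replicate number and the mean with SD in black. The genotypes lie apart in 8 panels and overlap in those of Hapln1 and Sox5, with KO higher for Acan, Comp and Chad.

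The matrilins are the adaptors that link collagen fibrils to aggrecan, and *Matn1* is known as largely restricted to cartilage. *Matn1* (chromosome 4, 130944385 to 130955475) was counted 122, 98 and 183 times in WT, and 20, 35 and 30 times in KO. Every KO value was under every WT value. The means of *Matn1* were 1.40 ± 0.291 CPM (WT) and 0.296 ± 0.0776 CPM (KO), which gave a ratio of WT to KO of 4.73 and a log2 fold change of -2.24 (standard error 0.23). This was the largest difference among the 10 genes, and leaving out 1 sample at a time gave values from -2.42 to -2.05. *Matn3* (chromosome 12, 8947929 to 8972028), which is expressed in growth cartilage, had 185, 136 and 253 counts in WT and 110, 94 and 91 counts in KO. The genotypes did not overlap, with means of 1.999 ± 0.378 CPM (WT) and 1.03 ± 0.125 CPM (KO). Its log2 fold change was -0.96 (standard error 0.16). The 2 matrilins stood at nearly equal levels per length in WT, with a ratio of *Matn1* to *Matn3* of 0.993, 1.09 and 1.09, and apart in KO, with 0.274, 0.561 and 0.497.

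*Comp*, cartilage oligomeric matrix protein, is a pentameric adaptor found in cartilage and also in tendon. *Comp* (chromosome 8, 70373558 to 70382066) reached 12.4, 9.02 and 12.7 CPM among WT samples, and 19.0, 20.2 and 19.9 CPM among KO samples. The KO values were close together and above the WT values. The log2 fold change was 0.79 (standard error 0.11), with the lowest value (0.65) when WT replicate 2 was left out. *Chad* encodes chondroadherin, a leucine-rich protein through which chondrocytes attach to the matrix. It lies on chromosome 11 from 94565047 to 94569127, overlapping the span of *Acsf2* on the opposite strand, with 0 exonic bases in common. Its CPM values were 7.05, 7.88 and 7.69 in WT, against 15.8, 16.7 and 18.01 in KO. The samples within a genotype were close and the genotypes far apart, with a KO-to-WT ratio of 2.23 and a log2 fold change of 1.16 (standard error 0.072). The coefficient of variation of *Chad* was 5.79% in WT and 6.50% in KO, and that of *Comp* was 18.1% and 3.15%.

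*Ucma*, a small secreted protein of the upper growth cartilage that carries Gla residues, was low in all samples. *Ucma* (chromosome 2, 4976122 to 4985748) had 126, 110 and 173 counts in WT and 86, 119 and 103 counts in KO. After scaling, the highest KO value, 1.25 CPM, came close to the lowest WT value, 1.33 CPM, without reaching it. The log2 fold change was -0.42 (standard error 0.15), between -0.54 and -0.31 when 1 sample was left out.

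*Sox9*, the master regulator of the chondrocyte lineage, showed the smallest spread of the 10 genes in WT. *Sox9* (chromosome 11, 112782224 to 112787760) had WT values of 15.9, 15.9 and 15.7 CPM, and KO values of 11.6, 11.8 and 12.2 CPM. The coefficient of variation was 0.721% in WT and 2.62% in KO, and the genotypes did not overlap. The log2 fold change was -0.42 (standard error 0.053), a ratio of WT to KO of 1.33. All 12 epidermal markers, from a tissue whose hair follicles use *Sox9*, were also lower in KO, and their part in this difference was not tested. *Sox5* (chromosome 6, 143828425 to 144781977), a SOX factor without an activation domain that binds beside SOX9, had WT values of 7.22, 5.89 and 6.55 CPM, and KO values of 7.20, 6.98 and 7.29 CPM. The ranges overlapped, and the log2 fold change was 0.13 (standard error 0.082). The gene shares 1330 exonic bases with an antisense gene, *Sox5os1*, which had 0 counts in every sample. The SOX partners thus differed in ratio, with 8.48 ± 0.869 times as much *Sox9* as *Sox5* per length in WT and 5.78 ± 0.152 in KO.

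*Ihh*, the ligand Indian hedgehog, was under 1 CPM in every sample. *Ihh* (chromosome 1, 74945315 to 74951672) had 42, 48 and 62 counts in WT and 35, 41 and 29 counts in KO. Scaled to CPM, the 3 WT values (0.444, 0.581 and 0.587) were just above the 3 KO values (0.373, 0.430 and 0.298). The log2 fold change was -0.55 with a standard error of 0.20, and the fold passed 1.5 with library size only (-0.62), without WT replicate 1 (-0.67) and without KO replicate 2 (-0.68).

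Levels were compared between genes per kilobase of the union of annotated exons (CPM per kilobase). In WT the order from the highest was *Acan* (13.9), *Hapln1* (5.92), *Chad* (4.49), *Comp* (3.84), *Sox9* (3.84), *Ucma* (1.62), *Matn1* (0.701), *Matn3* (0.663), *Sox5* (0.456) and *Ihh* (0.176). The sample ranges of neighbours overlapped for *Chad* and *Comp*, *Comp* and *Sox9*, and *Matn1* and *Matn3*, so these pairs had no order beyond their spread. In KO the order was *Acan* (18.5), *Chad* (10.02), *Comp* (6.64), *Hapln1* (6.14), *Sox9* (2.87), *Ucma* (1.22), *Sox5* (0.498), *Matn3* (0.342), *Matn1* (0.148) and *Ihh* (0.120), with overlap only between *Matn1* and *Ihh*. *Matn1*, level with *Matn3* in WT, was below the range of *Matn3* in KO, and *Chad*, below *Hapln1* in WT, was above it in KO. Set among all genes with a length, *Acan* per length was above 84.0% of them in WT and 88.6% in KO, *Chad* above 61.5% and 78.9%, and *Matn1* above 31.3% and 12.5%. The union of exons of *Sox5* covers 14376 bases over all its isoforms.

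**Figure D2:**
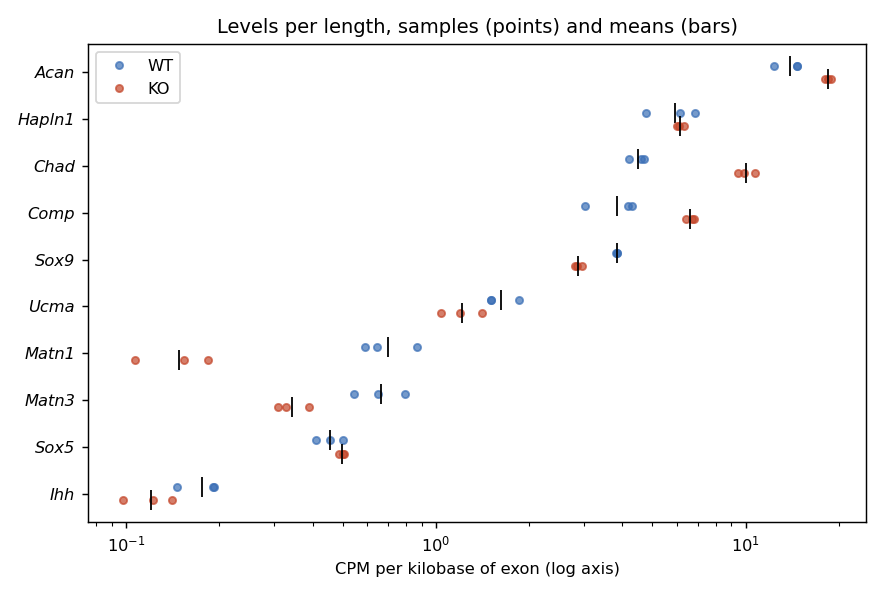
Level per length of the 10 genes, in CPM per kilobase of exon on a log axis, with a point per sample (blue WT, red KO) and a bar at each mean, ordered by the WT mean. Acan is the highest in both genotypes, Chad and Comp move above Hapln1 in KO, and Matn1 falls to a mean of 0.148.

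Ratios within a sample do not depend on how the libraries are scaled. Relative to *Acan* of the same sample and per length, *Matn1* stood at 0.0439, 0.0480 and 0.0593 in WT and at 0.00565, 0.0101 and 0.00833 in KO. *Chad* went the other way, from 0.286, 0.380 and 0.313 to 0.4996, 0.548 and 0.579. *Sox9* fell from 0.278 ± 0.0294 to 0.155 ± 0.00593 and *Ucma* from 0.117 ± 0.0128 to 0.0659 ± 0.0116 on this ratio. In none of the 9 ratios to *Acan* did the genotypes overlap. These ratios show unequal differences among the genes and do not say which gene was constant.

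**Figure D3:**
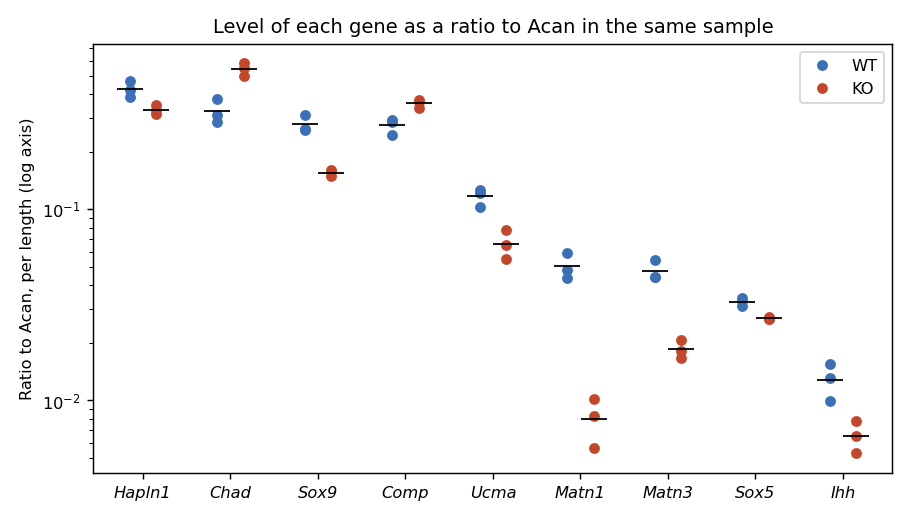
Level per length of the other 9 genes divided by that of Acan in the same sample, on a log axis, with a point per sample (blue WT, red KO) and a bar at each mean. Chad and Comp lie higher in KO, the other 7 lie lower, and Matn1 shows the widest gap.

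Replicates did not move together in all 10 genes. WT replicate 2 was the lowest WT sample for 6 of them (*Acan*, *Hapln1*, *Matn1*, *Matn3*, *Comp* and *Sox5*) and the highest for 2 (*Chad* and *Sox9*). KO replicate 1 was the lowest KO sample for 6 (*Hapln1*, *Matn1*, *Comp*, *Chad*, *Ucma* and *Sox9*) and the highest for *Acan* and *Matn3*. The summed level of the 10 genes, of which *Acan* makes up most, was 164 to 198 CPM in WT, lowest in WT replicate 2, and 231 to 234 CPM in KO.

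Other genes of cartilage were taken from lists chosen with earlier results of these data known, so their calls are not independent support. They were tested in edgeR by its quasi-likelihood method. The p-values were adjusted by Benjamini-Hochberg over all 22071 genes, of which 16.7% were called. Of 8 collagens of cartilage, 0 were called higher and 4 lower, with a median log2 fold change of -0.69. *Col2a1*, the main collagen of cartilage, fell from 278 ± 41.7 to 141 ± 0.305 CPM (log2 fold change -0.98, standard error 0.094, edgeR adjusted p = 2.80e-05). The chains of type IX collagen that decorate its fibrils, *Col9a1* (-1.40), *Col9a3* (-1.19) and *Col9a2* (-0.88), were lower as well. *Matn1* and *Matn3* lay on the side of these collagens, and *Acan*, *Comp* and *Chad* on the other.

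Of 17 further matrix and secreted proteins of cartilage and joint, 6 were called higher and 4 lower, with a median of 0.20. *Cilp2*, an intermediate layer protein of joint cartilage, rose from 2.90 ± 0.212 to 6.74 ± 0.390 CPM (log2 fold change 1.21, edgeR adjusted p = 3.36e-06), and *Clec3a*, a cartilage lectin, rose by 1.19 on the log2 scale. *Vit*, the matrix protein vitrin, rose by 0.77 on that scale. *Cnmd*, chondromodulin, which keeps vessels out of cartilage, fell from 11.025 ± 2.50 to 4.54 ± 0.295 CPM (-1.28, edgeR adjusted p = 1.07e-04). Of 15 genes for making chondroitin sulfate, 0 were called higher and 2 lower, with a median of -0.095. *Slc26a2*, the sulfate transporter on which the sulfation of aggrecan depends, fell from 41.7 ± 3.90 to 21.03 ± 0.421 CPM (-0.99, edgeR adjusted p = 2.48e-06). Of 13 proteases and inhibitors that turn aggrecan over, 0 were called by edgeR and 0 by DESeq2, with a median of 0.18 and 3 below 0. In edgeR 8 of them had an unadjusted p under 0.05. Most of these 8 also had an adjusted p under 0.05 and missed only the 1.5-fold limit. The share of all genes tested with a p under 0.05 was not computed.

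Of 17 other SOX genes, 14 were tested, 0 were called higher and 1 lower, with a median of -0.13. The genotypes did not overlap in 10 of the 14 (55.9% of all genes tested). Of these, 6 were lower in KO (28.5% of all genes) and 4 higher (27.3% of all genes). Every tested SOX gene on this list but the 1 called was under the 1.5-fold limit. *Sox6*, the partner of *Sox5*, was at 32.5 ± 1.15 CPM (WT) and 37.6 ± 2.12 CPM (KO), and its log2 fold change of 0.21 was under the 1.5-fold limit. *Sox15*, known from epidermis and myoblasts, fell from 1.47 ± 0.219 to 0.367 ± 0.0525 CPM (-1.997, edgeR adjusted p = 1.61e-05).

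Among 11 tested regulators of chondrocyte transcription, 1 was called higher and 1 lower, with a median of -0.010. *Zbtb20*, a repressor in maturing chondrocytes, rose from 17.5 ± 0.989 to 40.7 ± 1.75 CPM (1.21, edgeR adjusted p = 2.60e-07), and *Barx2* fell from 20.6 ± 3.52 to 4.19 ± 0.316 CPM (-2.30, edgeR adjusted p = 5.93e-07). Beside *Ihh*, 15 genes of hedgehog and PTHrP signalling had a median of -0.011, with 1 called higher and 0 lower. That gene was *Hhip*, a decoy receptor for hedgehog ligands, which rose by 0.69 on the log2 scale (edgeR adjusted p = 2.41e-05). Of 12 growth signals and receptors of chondrocytes, 1 was called higher and 3 lower, with a median of -0.042. *Bmp2*, a ligand that drives chondrocyte maturation, fell by 1.12, *Gdf5* of the joint region by 0.79 and *Fgfr3*, a brake on growth cartilage, by 0.65 on the log2 scale, while *Chrdl1*, which binds BMP ligands, rose by 0.82. For *Fgfr3* the change was under 1.5-fold when WT replicate 2 was left out (-0.54) and when upper-quartile factors were used (-0.58). WT replicate 2 was the highest WT sample for all 12 epidermal markers, and also for 6 of the 15 genes called lower on these cartilage lists (*Barx2*, *Bmp2*, *Fgfr3*, *Mia*, *Slc26a2* and *Sox15*). It was the lowest WT sample for 8 of the 15, the 4 collagens and *Cnmd* among them. The share of all genes with WT replicate 2 highest was not computed, and *Mia* had only 13 to 16 counts in WT and 3 to 5 in KO. The part of epidermis in the levels of these genes was not tested.

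**Figure D4:**
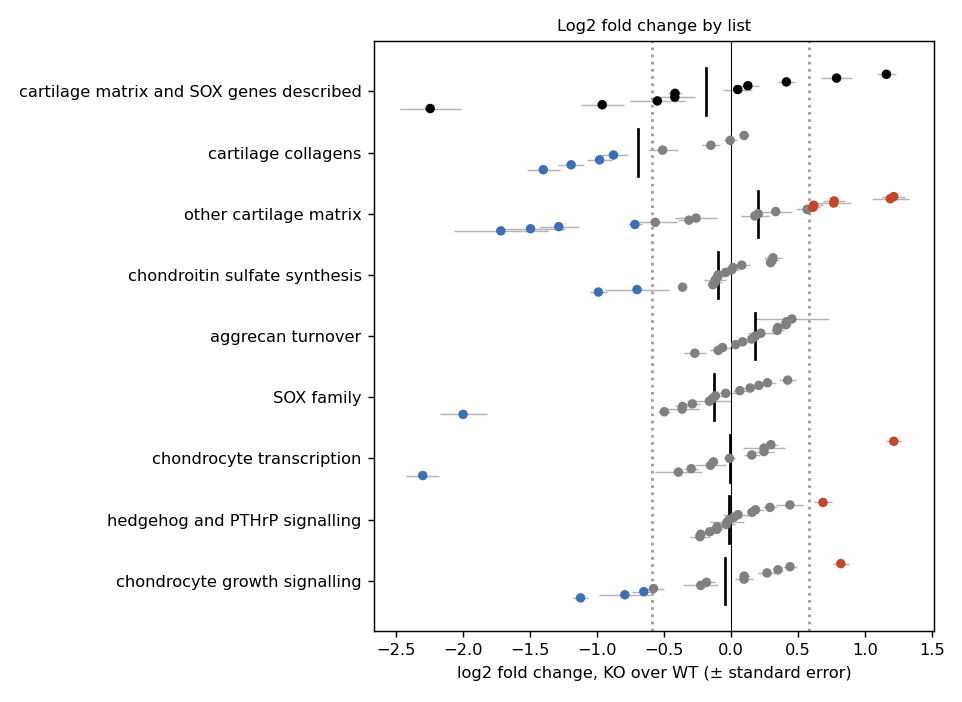
Log2 fold change of KO over WT with its standard error for each gene tested, by list, with black bars at list medians and dotted lines at a fold change of 1.5. Red genes were called higher, blue genes lower and grey genes were not called by edgeR, and the 10 genes described here are in black without a test. Cartilage collagens have the lowest median (-0.69) of the lists drawn.

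The genes most like 3 of the 10 were looked for by the root mean square difference of log2 CPM, centred on the mean of each gene, over the 6 samples, among 15865 other genes with a mean of at least 1 CPM. Closest to *Acan* were *Pyroxd2* (0.0315), *Magi2* (0.0316) and *C1qtnf3* (0.0353). Closest to *Sox9* were *Nifk* (0.0252), *Spryd7* (0.0261) and *Zmat3* (0.0271), and closest to *Comp* were *Gpat3* (0.0428), *Gm10053* (0.0603) and *1700001L05Rik* (0.0604). None of these 9 genes was on the cartilage lists used here, which are a selection of genes. The difference between genotypes is part of this measure, so genes with a similar log2 fold change come out close. The 3 genes closest to *Acan* had log2 fold changes of 0.44, 0.41 and 0.39, beside 0.41 for *Acan*.

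*Synpo2*, the host gene of *SYISL*, had 10812 to 14672 counts in WT and 18054 to 22270 counts in KO. The level of *SYISL* itself was not analysed here.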

How the data were processed

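RNA-seq of leg muscle from 3 WT and 3 KO fetuses was used. Per the labels, the authors trimmed reads with Trim Galore 0.6.6, mapped them to mm10 with HISAT2 2.2.1 and counted them per gene with featureCounts 2.0.1. The authors deposited whole-number counts for each gene, not normalized, of 82054811 to 102233181 per sample. The gene annotation and strand setting are not given in the sources used here, so reads of overlapping genes cannot be assigned with certainty. The authors' replicates are not said to be separate litters, so p-values measure only the spread between these samples. Of the gene IDs, 55227 matched GENCODE M21 and 1035 did not.

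Counts were analysed in R 4.3.3 with edgeR 4.0.16 (filterByExpr, TMM, quasi-likelihood F-test, Benjamini-Hochberg over 22071 genes). A gene was called at a fold change above 1.5 with an adjusted p below 0.05. CPM values use TMM-scaled library sizes and levels per length the union of GENCODE exons. The members and lists were chosen with earlier results of these data known. Named genes are the members, *Synpo2*, *Sox6*, *Col2a1*, up to 4 called genes per pathway list averaging 0.5 CPM or more, and the 3 nearest genes of 3 members. The cartilage collagens not called were named after their values were seen. Alternatives were other scalings, DESeq2 1.42.0, other filters, a replicate block and leaving out each sample. Same-numbered WT and KO samples deviated with correlations of -0.20, -0.13 and 0.047, so they were not treated as paired. Sequences are from RefSeq on GRCm38.p6.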

Additional observations from a re-analysis of the deposited data

How the results depend on the processing

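The 10 genes were recomputed under 13 alternatives each. For 9 of them the sign of the log2 fold change was the same in all 13, and for *Hapln1* it was opposite in 2. The number of the 10 genes past the thresholds was 2 higher and 2 lower, and 3 lower with library size only and without WT replicate 1, where *Ihh* was added. *Matn1* ranged from -2.42 to -2.05, *Matn3* from -1.08 to -0.81, *Comp* from 0.65 to 0.88 and *Chad* from 1.09 to 1.23. The other scalings shifted the median log2 fold change of all genes to -0.073 with library size only and to 0.064 with upper-quartile factors. Over all genes, edgeR called 1835 higher and 1852 lower, against 1528 and 2088 with library size only and 2188 and 1673 with upper-quartile factors. With the replicate block the counts were 1744 higher and 1777 lower, no member was called differently, and same-numbered samples share only a number. The number of chondroitin sulfate genes called lower was 1 in place of 2 with upper-quartile factors and with DESeq2, and 1 to 2 when a sample was left out, and *Chst13*, named after its values were seen, was the gene not called where the count was 1. All other counts on the cartilage lists stayed within 1.5 times the count given. The counts of called markers of other tissues, such as tendon and bone, were not recomputed under these alternatives. Depth limits *Matn1* and *Ihh*, with 20 to 62 counts in some samples.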
